A study of Arabidopsis thaliana with 18 samples.

Results

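Mature miRNA levels were compared between *hyl1-2* and Col-0 seedlings at 27 °C, in 3 small RNA libraries of each genotype, over all 161 entries of the deposited table. These are 6 of the 18 libraries of the series, which also holds both genotypes at 21 °C and the suppressor line *dcl1-24/hyl1-2* at both temperatures. Col-0 is the wild-type accession, and *hyl1-2* carries a mutant allele of *HYPONASTIC LEAVES 1* (*HYL1*) in the Col-0 background. All 6 libraries came from whole 4-d-old seedlings that had been stratified at 4 °C for 5 d, kept under red light for 48 h at 21 °C, and then moved to 27 °C for another 48 h under that light. Levels are given as RPMR, reads per 1000000 reads of 45S rRNA in that library. The table lists mature miRNAs and no mRNA, so neither the *HYL1* transcript nor markers of seedling tissues could be checked against the labels. The study calls the 3 libraries of a group biological replicates, and no source used here says whether they were separate plantings, so the p-values measure the spread between these libraries.

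Plant miRNAs are cut from stem-loop precursors by the RNase III enzyme DICER-LIKE 1 (DCL1), and HYL1 binds double-stranded RNA and helps DCL1 to cut efficiently and at the right position. The cuts release a duplex of a guide strand, which is loaded into ARGONAUTE 1 and pairs with target mRNAs, and a passenger strand, which is usually discarded. Many Arabidopsis miRNAs come from families of paralogous *MIR* genes, and when the loci of a family give the same mature sequence they share an entry of the table. The 161 entries cover 203 miRNA names, and 29 entries hold several names.

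The sequences on which the comparison turns are shown here, read from the TAIR10.1 reference (RefSeq) at the annotated position of each miRNA, 5′ to 3′, with the seed (bases 2 to 8) in capitals. The first set holds abundant guide strands with near-identical relatives, grouped by shared seed, because relatives that differ at few bases are compared below. Positions are counted from 1 at the 5′ end.
miR159a: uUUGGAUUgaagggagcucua
miR159b-3p: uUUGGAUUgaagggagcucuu
miR159c: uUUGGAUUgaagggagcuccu
miR319a: uUGGACUGaagggagcucccu
miR319c: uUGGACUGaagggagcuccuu
miR165a-3p: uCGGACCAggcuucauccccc
miR166a-3p: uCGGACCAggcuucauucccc
miR396a-5p: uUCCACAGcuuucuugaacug
miR396b-5p: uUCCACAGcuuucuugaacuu
From miR159a to miR159b-3p the difference is A21U, from miR159c to miR159b-3p it is C20U, from miR319a to miR319c it is C20U, from miR165a-3p to miR166a-3p it is C17U, and from miR396a-5p to miR396b-5p it is G21U. Reads were aligned without mismatches, so a read that ends before the differing base fits both members. ShortStack placed reads with several matches, and whether the count of a miRNA required exact ends is not given in the sources used here. The split of reads within miR159, within miR319 and between miR396a-5p and miR396b-5p is therefore uncertain.

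The second set holds the entries at the extremes of the comparison, which are miR173-5p (lowest fold change), miR162a-3p, miR158a-3p (highest level in Col-0), miR156a-5p and miR5026 (highest level in *hyl1-2*). Their seeds differ from each other.
miR173-5p: uUCGCUUGcagagagaaaucac
miR162a-3p: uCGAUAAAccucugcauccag
miR158a-3p: uCCCAAAUguagacaaagca
miR156a-5p: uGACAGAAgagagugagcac
miR5026: aCUCAUAAgaucgugacacgu
The third set holds passenger strands that are specific to a locus while the guide strands of their family share an entry or nearly do. miR156a-3p and miR156c-3p differ at a single base outside the seed (A13U from miR156c-3p to miR156a-3p), and from miR396b-3p to miR396a-3p the differences are C2U, G7U and A21G.
miR156a-3p: gCUCACUGcucuuucugucaga
miR156b-3p: uGCUCACCucucuuucugucagu
miR156c-3p: gCUCACUGcucuaucugucaga
miR156f-3p: gCUCACUCucuauccgucacc
miR396a-3p: gUUCAAUAaagcugugggaag
miR396b-3p: gCUCAAGAaagcugugggaaa

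In Col-0 at 27 °C the summed miRNA level was 41894, 70659.8 and 23503 RPMR, and in *hyl1-2* it was 18739.7, 10352 and 7850.1 RPMR. The lowest Col-0 library lay above the highest *hyl1-2* library, and the ratio of the means was 3.68 (exact permutation test, two-sided, 3 against 3 libraries, p = 0.1, the smallest that 20 arrangements allow, and 0.114 adjusted over 16 such quantities). miR5026 alone gave 44.8% ± 4.55 (SD, n = 3) of the summed level in *hyl1-2* and 2.15% ± 0.51 (SD, n = 3) in Col-0, and without it the ratio of the means was 6.40. At the deposited scale a read was worth 0.240 to 0.444 RPMR in these 6 libraries, which corresponds to 68857 to 173156 miRNA reads in Col-0 and 23319 to 77936 in *hyl1-2*. Entries above 0 numbered 149, 154 and 140 in Col-0 and 138, 120 and 121 in *hyl1-2*. The *hyl1-2* libraries thus held fewer miRNA reads than most Col-0 libraries, which is also what a lower RPMR means. The implied 45S rRNA reads, the denominator of RPMR, were 2389149, 2450558 and 2929676 in Col-0. They were 4158872, 2252552 and 2997407 in *hyl1-2*, so the groups overlapped in that depth. The part of depth in the results was not tested. In whole seedlings, fewer cells that express a miRNA and less of it per cell cannot be told apart.

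Most miRNAs were at a lower level in the *hyl1-2* seedlings. Entries were tested where the 18 libraries averaged 1 RPMR or more, which left 139. Of these, 75 (54.0%) were lower and 2 (1.44%) were higher at an adjusted p under 0.05, by limma on log2(RPMR + 1) with Benjamini-Hochberg adjustment. On this scale the change of a low miRNA is understated. The median log2 fold change over the 139 entries was -1.62, and 120 entries had a negative and 19 a positive value. In 76 entries (54.7%) all 3 *hyl1-2* libraries lay below all 3 Col-0 libraries, and 69 of the 75 entries called lower were among them. Fold changes of below -3 were reached by 20 of the entries called. Of the 75 entries called lower, 47 kept the call when each of the 6 libraries was left out in turn.

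**Figure D1:**
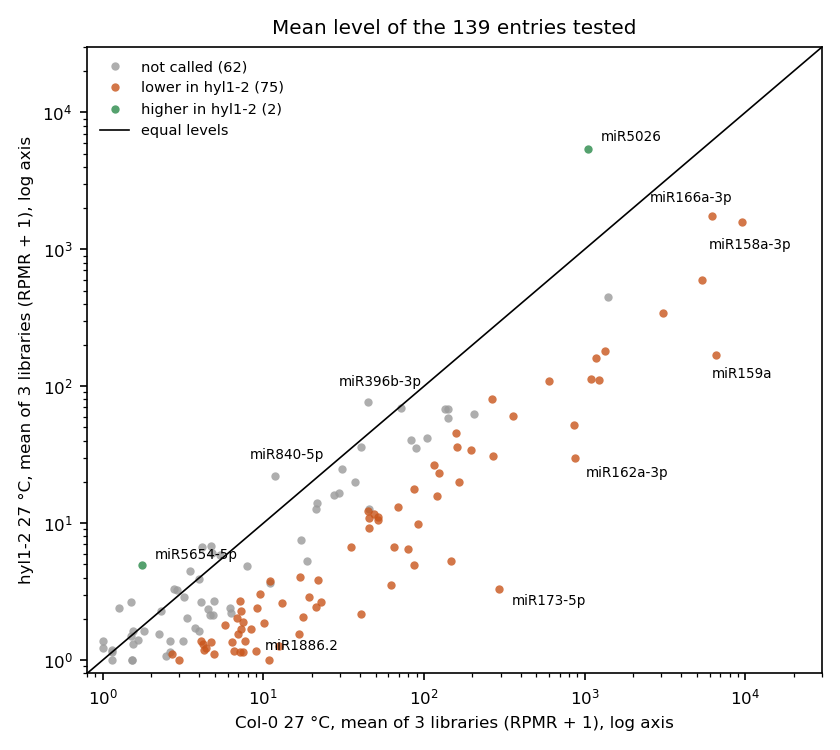
Mean RPMR + 1 of 3 libraries in Col-0 (x axis) and *hyl1-2* (y axis) at 27 °C for the 139 entries tested, both on log axes, coloured by the limma call. The 75 entries called lower lie below the line of equal levels, and miR5026 lies far above it.

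The fold change was not the same at all levels. Among the 47 entries with a Col-0 mean under 5 RPMR, 9 were lower, 1 was higher and the median log2 fold change was -0.31, whereas 24 of 31 entries between 5 and 20 RPMR were lower with a median of -2.09. Between 20 and 100 RPMR 18 of 30 were lower with a median of -2.0, and of the 31 entries at 100 RPMR or more 24 were lower and 1 was higher, with a median of -2.54. The Col-0 level enters both the band and the fold change, and a pseudocount of 1 compresses the lowest band, so these counts describe the table and were not tested.

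The counts depended on the scale given to the libraries. When each library was scaled to its summed miRNA RPMR, the median log2 fold change moved to -0.38, with 30 entries lower (21.6%) and 16 higher (11.5%). With miR5026 left out of the sum the median was 0.26, with 15 lower (10.8%) and 29 higher (20.9%). With median-of-ratios factors over the miRNAs it was -0.21, with 23 lower (16.5%) and 19 higher (13.7%). On these scales a fold change is relative to the other miRNAs. In all, 15 entries were called lower on all 4 scales and 2 were called higher on all 4 scales, and a single entry, miR846-3p, was called lower on the RPMR scale and higher on another (log2 fold change -1.72, SE 0.72, limma adjusted p = 0.0357 on the RPMR scale, and 0.93 with limma adjusted p = 0.0153 when the sum left out miR5026). The RPMR call of miR846-3p was lost without some libraries. Its limma adjusted p was 0.068 without Col-0 replicate 1, 0.15 without Col-0 replicate 2, 0.11 without *hyl1-2* replicate 2 and 0.13 without *hyl1-2* replicate 3. Levels and calls in the following are on the RPMR scale unless a scale is named.

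**Figure D2:**
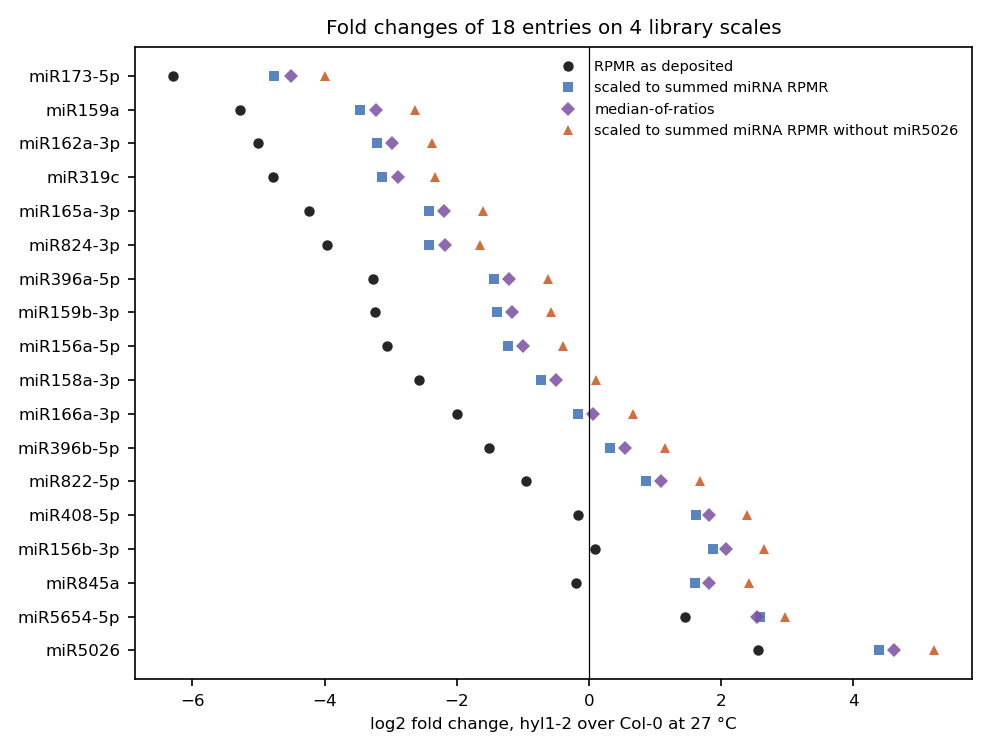
Log2 fold changes (x axis) of 18 entries on 4 library scales: RPMR as deposited (circles), scaled to summed miRNA RPMR (squares), median-of-ratios (diamonds) and scaled to summed miRNA RPMR without miR5026 (triangles). miR173-5p lies between -6.29 and -3.99 on all scales, whereas miR166a-3p runs from -1.996 to 0.67.

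miR173, a 22-nt miRNA that guides cleavage of *TAS1* and *TAS2* transcripts and so triggers their siRNAs, had the lowest fold change of all. Its level was 297, 474 and 108 RPMR in Col-0 and 2.88, 3.11 and 1.001 RPMR in *hyl1-2*. The groups were far apart (log2 fold change -6.29, SE 0.75, limma adjusted p = 1.38e-11), and the value stayed at -4.77, -3.99 and -4.52 when scaled to the miRNA sum, to the sum without miR5026 and by median-of-ratios. Among the 15 lowest entries it was followed by guide strands of conserved families. The level of miR159a, which targets *MYB33*-type transcription factors, was 6076, 10954 and 2735 RPMR in Col-0 and 242, 205 and 60.05 RPMR in *hyl1-2*, and it fell from 13.9% to 1.35% of the summed level (log2 fold change -5.29, SE 0.67, limma adjusted p = 1.42e-10). miR162a-3p, which targets *DCL1* mRNA itself, was present at 946, 1197 and 479.9 RPMR in Col-0 and 51.5, 11.99 and 23.4 RPMR in *hyl1-2* (log2 fold change -5.002, SE 0.75, limma adjusted p = 3.35e-08). These 3 miRNAs were called lower on all 4 scales.

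The *TCP* regulator miR319c was next, at 126, 206 and 105 RPMR in Col-0 and 6.25, 3.995 and 2.67 RPMR in *hyl1-2* (log2 fold change -4.78, SE 0.74, limma adjusted p = 8.21e-08). Both entries of miR165, a regulator of class III HD-ZIP genes that pattern leaves and vessels, were low together. The guide entry is shared with *MIR165b*, so the strands of *MIR165a* alone were not compared. The guide miR165a-3p was at 1002, 1196 and 389.5 RPMR in Col-0 and 101, 32.9 and 19.4 RPMR in *hyl1-2* (log2 fold change -4.24, limma adjusted p = 2.76e-06), and the passenger miR165a-5p was at 81.2, 128 and 47.1 RPMR in Col-0 and 3.61, 6.66 and 1.67 RPMR in *hyl1-2* (log2 fold change -4.14, limma adjusted p = 4.35e-06). In each strand the highest *hyl1-2* library was below the lowest Col-0 library. Further entries of this group were miR781a (-4.11, limma adjusted p = 1.65e-06), miR824-3p (-3.97, limma adjusted p = 5.33e-06), the passenger strand of a miRNA that targets *AGAMOUS-LIKE16*, and miR447a.2-3p (-3.55, limma adjusted p = 4.36e-05). miR171b-3p, which targets *SCARECROW-LIKE* genes, was at 16.3, 22.04 and 8.53 RPMR in Col-0 and 0.240, 0.444 and 1.001 RPMR in *hyl1-2* (log2 fold change -3.35, limma adjusted p = 1.91e-05). All 7 entries were called lower on all 4 scales.

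The remaining entries of the lowest 15 were low or abundant alike. miR1886.2 was at 9.21, 15.1 and 5.12 RPMR in Col-0 and was listed at 0 in all 3 *hyl1-2* libraries (fitted log2 fold change -3.33, which depends on the pseudocount, limma adjusted p = 4.44e-06). miR5012 was at 9.21, 17.96 and 7.51 RPMR in Col-0 and 0, 0.444 and 0.334 RPMR in *hyl1-2* (-3.25, limma adjusted p = 4.44e-06). Both of these were lower on all 4 scales. miR159c (-3.30, limma adjusted p = 2.67e-04), miR396a-5p (-3.27, limma adjusted p = 1.37e-04) and miR159b-3p (-3.23, limma adjusted p = 1.91e-05) were lower by more than the median entry on the RPMR scale, and their values on the scale without miR5026 were -0.89, -0.61 and -0.57. Outside the rule for named entries, and chosen after their values were seen, miR5651 (-2.83), miR848 (-2.65) and miR162a-5p (-2.27) completed the 15 entries that were lower on all 4 scales.

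**Figure D3:**
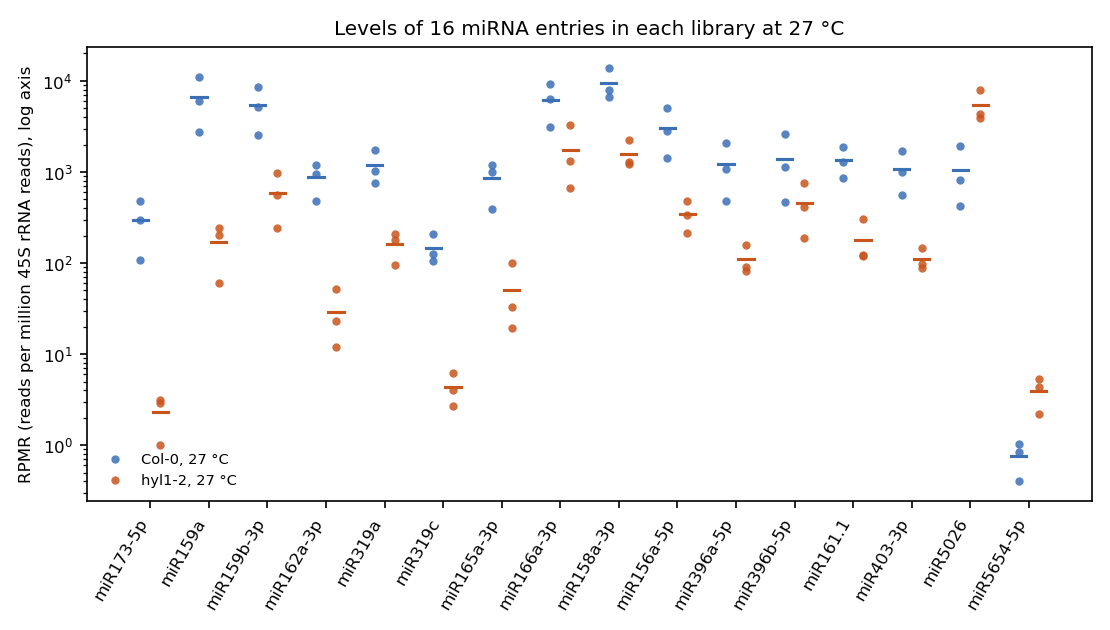
RPMR of 16 entries in each library (log y axis), with 3 Col-0 libraries in blue and 3 *hyl1-2* libraries in orange, and a bar at the mean of each group. The groups of miR173-5p, miR159a, miR162a-3p and miR319c are widely separated, those of miR166a-3p and miR396b-5p overlap, and miR5026 and miR5654-5p are reversed.

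miR5026 behaved unlike the other abundant miRNAs. Its level was 813, 1929 and 419.8 RPMR in Col-0 and 7886, 4369.7 and 3927 RPMR in *hyl1-2*, so every *hyl1-2* library lay above every Col-0 library (log2 fold change 2.56, SE 0.62, limma adjusted p = 3.46e-04). It made up 42.1%, 42.2% and 50.0% of the summed level in the 3 *hyl1-2* libraries and 1.94%, 2.73% and 1.79% in the Col-0 libraries. The call held without each library in turn, and its log2 fold change was 4.40, 5.22 and 4.62 on the 3 other scales. In TAIR10.1 miR5026 lies at chr4:7844612-7844632, plus strand, in the 3′ part of the *MIR5026* precursor (chr4:7844496-7844688, plus strand), and 2011 bases separate it from miR863-5p on the same strand. The precursor of this most abundant *hyl1-2* miRNA is printed with the mature sequence in capitals.
MIR5026: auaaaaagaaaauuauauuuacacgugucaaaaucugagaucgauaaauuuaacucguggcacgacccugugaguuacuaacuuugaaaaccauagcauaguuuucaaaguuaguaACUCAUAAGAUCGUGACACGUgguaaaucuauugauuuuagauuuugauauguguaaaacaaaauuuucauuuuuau
miR863-5p was at 2.09, 3.67 and 0 RPMR in Col-0 and 4.33, 1.78 and 0.667 RPMR in *hyl1-2* (log2 fold change 0.26, SE 0.62, limma adjusted p = 0.758).

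miR5654-5p was the other entry called higher. It was scarce in both genotypes, at 0.837, 0.408 and 1.02 RPMR in Col-0 and 5.29, 2.22 and 4.34 RPMR in *hyl1-2* (log2 fold change 1.46, SE 0.63, limma adjusted p = 0.0417), and its groups did not overlap. With a pseudocount of 5 it was no longer called (limma adjusted p = 0.13). Nor was it when some libraries were left out, where the limma adjusted p was 0.086 without Col-0 replicate 1, 0.14 without Col-0 replicate 2, 0.12 without *hyl1-2* replicate 1 and 0.1 without *hyl1-2* replicate 3. The opposite strand miR5654-3p was at 4.60, 6.12 and 0.683 RPMR in Col-0 and 8.90, 3.995 and 2.33 RPMR in *hyl1-2* (log2 fold change 0.43, SE 0.69, limma adjusted p = 0.628). miR5026 and miR5654-5p were the 2 entries called higher on all 4 scales, and with them 16 were called higher on the 3 miRNA-based scales. Among these were miR156b-3p, miR408-5p, miR845a, miR845b and miR393b-3p, and, chosen after their values were seen, miR396b-3p and miR840-5p. miR840-5p was at 13.4, 11.02 and 7.85 RPMR in Col-0 and 29.8, 15.1 and 18.7 RPMR in *hyl1-2* (log2 fold change 0.89, SE 0.72, limma adjusted p = 0.299), where the groups did not overlap. miR845a, a miRNA that targets the primer binding site of retrotransposons, was at 61.5, 91.8 and 58.4 RPMR in Col-0 and 117, 35.96 and 51.04 RPMR in *hyl1-2* and miR845b at 2.09, 5.30 and 3.75 RPMR in Col-0 and 9.38, 2.66 and 5.34 RPMR in *hyl1-2*, and neither was called (limma adjusted p = 0.86 for miR845a and 0.578 for miR845b).

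The most abundant miRNAs of Col-0 differed in how far they fell. miR158a-3p took 22.3% ± 5.27 (SD, n = 3) of the summed level in Col-0 and 13.3% ± 1.99 in *hyl1-2*. Its level was 7858, 13974 and 6664 RPMR in Col-0 and 2239, 1285 and 1225 RPMR in *hyl1-2* (log2 fold change -2.56, SE 0.58, limma adjusted p = 1.58e-04). miR166a-3p, which covers 7 loci and targets class III HD-ZIP genes like miR165, was at 6248, 9199.5 and 3147 RPMR in Col-0 and 3256, 1319 and 663 RPMR in *hyl1-2*, with overlapping groups (log2 fold change -1.996, SE 0.62, limma adjusted p = 0.00519). The call for miR166a-3p was lost without *hyl1-2* replicate 3 (limma adjusted p = 0.069), and its share of the summed level was 13.8% in Col-0 and 12.8% in *hyl1-2*. miR161.1, which targets pentatricopeptide repeat genes, was at 1281, 1869 and 868 RPMR in Col-0 and 303, 118 and 122 RPMR in *hyl1-2* (log2 fold change -2.96, SE 0.68, limma adjusted p = 2.13e-04). miR319a was at 1019.6, 1755 and 765 RPMR in Col-0 and 207, 179.8 and 94.4 RPMR in *hyl1-2* (log2 fold change -2.86, SE 0.68, limma adjusted p = 2.88e-04). On the scale without miR5026 the log2 fold changes of miR158a-3p and miR166a-3p were 0.10 and 0.67, of the opposite sign.

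The miRNAs of developmental phase change were represented by 10 entries of miR156, miR157 and miR172, and all were tested. On the RPMR scale 6 were lower, a share near the 54.0% of all entries tested, and none was higher, with a median log2 fold change of -2.20 beside -1.62 over all entries, and the median was -0.43, 0.38 and -0.21 on the 3 other scales. miR156 keeps seedlings juvenile by repressing *SQUAMOSA PROMOTER-BINDING PROTEIN-LIKE* genes. The guide miR156a-5p, shared by 6 loci, was at 2818, 4989.9 and 1418 RPMR in Col-0 and 477, 337 and 215 RPMR in *hyl1-2* (log2 fold change -3.05, SE 0.67, limma adjusted p = 1.18e-04), and every *hyl1-2* library was below every Col-0 library. The passenger strands, which tell the loci apart, did not follow alike. miR156c-3p was at 124, 204 and 30.4 RPMR in Col-0 and 19, 15.5 and 10.01 RPMR in *hyl1-2* (log2 fold change -2.59, SE 0.76, limma adjusted p = 0.00286), whereas miR156a-3p was at 71.6, 176 and 17.4 RPMR in Col-0 and 48.1, 34.2 and 20.4 RPMR in *hyl1-2* (log2 fold change -0.89, SE 0.79, limma adjusted p = 0.341). miR156b-3p was at 44.4, 67.7 and 6.14 RPMR in Col-0 and 60.4, 33.3 and 11.7 RPMR in *hyl1-2* (log2 fold change 0.09, SE 0.78, limma adjusted p = 0.932), and its groups overlapped. miR157a-3p was lower (log2 fold change -2.12, limma adjusted p = 0.0167), but the groups overlapped and the limma adjusted p was 0.064 without Col-0 replicate 1, 0.14 without Col-0 replicate 2, 0.096 without *hyl1-2* replicate 2 and 0.076 without *hyl1-2* replicate 3. miR172a, which acts later in phase change, stayed under 5 RPMR in all 6 libraries and was not called (log2 fold change -0.47, SE 0.54, limma adjusted p = 0.475).

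The largest list, miRNAs of leaf and meristem development, held 26 tested entries of 28. Of these 20 were lower, beside 75 of 139 (54.0%) over all entries, and none was higher, with a median of -2.31 on the RPMR scale and -0.88, -0.26 and -0.65 on the others. miR159a, miR159b-3p and miR166a-3p, given above, were its most abundant members together with miR396b-5p, a regulator of *GROWTH-REGULATING FACTOR* genes. miR396b-5p was at 1126, 2604 and 467 RPMR in Col-0 and 752, 409 and 190.2 RPMR in *hyl1-2*, with overlapping groups (log2 fold change -1.51, SE 0.70, limma adjusted p = 0.0565). For the same log2 fold change the limma adjusted p was 0.0271 with a replicate block in a fit of the 6 libraries, 0.0694 in that fit without the block and 0.0578 with the block in the fit of 18.

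Of the auxin-related miRNAs, 13 of 14 entries were tested. In this list 9 were lower (54.0% over all entries) and none was higher, with a median of -1.92 on the RPMR scale and -0.61, 0.13 and -0.43 on the others. miR167a-5p, which targets *ARF6* and *ARF8*, was at 560.5, 1044 and 201 RPMR in Col-0 and 139.9, 128 and 54.7 RPMR in *hyl1-2* (log2 fold change -2.29, SE 0.73, limma adjusted p = 0.00602), and the limma adjusted p was 0.074 without Col-0 replicate 2 and 0.055 without *hyl1-2* replicate 3. miR160a-5p, which targets *ARF10*, *ARF16* and *ARF17*, was at 92.9, 113 and 49.8 RPMR in Col-0 and 15.4, 23.1 and 12.01 RPMR in *hyl1-2* (log2 fold change -2.24, SE 0.75, limma adjusted p = 0.00784), and the groups did not overlap. miR390a-5p, which starts the *TAS3* siRNAs that act on *ARF3* and *ARF4*, was at 106, 146 and 60.1 RPMR in Col-0 and 61.3, 35.96 and 25.02 RPMR in *hyl1-2* and was not called (log2 fold change -1.33, SE 0.75, limma adjusted p = 0.122). Its limma adjusted p was 0.0224 with a replicate block in a fit of the 6 libraries, 0.111 in that fit without the block and 0.124 with the block in the fit of 18. miR393b-3p, from the strand opposite to the one that targets the auxin receptor *TIR1*, was at 116, 238 and 49.5 RPMR in Col-0 and 96.7, 54.6 and 49.04 RPMR in *hyl1-2* (log2 fold change -0.79, SE 0.76, limma adjusted p = 0.37). Its groups overlapped on the RPMR scale, and on the 3 other scales its log2 fold change was 1.03, 1.84 and 1.25. Outside the rule for named entries, the scarcer miR393a-3p was called lower (log2 fold change -1.90). It was at 5.86, 10.2 and 3.41 RPMR in Col-0 and 0.481, 0.888 and 1.33 RPMR in *hyl1-2*, without overlap.

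The miRNAs of the silencing machinery had 8 entries, all tested, of which 5 were lower, near the 54.0% of all entries, and none was higher (median -2.13, and -0.84, -0.29 and -0.65 on the other scales). Beside miR162a-3p the most abundant was miR403-3p, which targets *AGO2*, at 1006, 1711 and 554 RPMR in Col-0 and 147, 98.5 and 87.4 RPMR in *hyl1-2* (log2 fold change -3.17, SE 0.71, limma adjusted p = 1.37e-04). The more abundant entries of miR168, which targets *AGO1*, differed from these. miR168a-5p was at 76.6, 142 and 27.3 RPMR in Col-0 and 61.1, 34.2 and 24.02 RPMR in *hyl1-2* and miR168a-3p at 115, 241 and 64.2 RPMR in Col-0 and 91.4, 55.9 and 25.02 RPMR in *hyl1-2*. Neither was called (log2 fold change -0.84 for miR168a-5p with limma adjusted p = 0.348, and -1.25 for miR168a-3p with 0.147). Outside the rule for named entries, the scarcer passenger miR168b-3p was called lower (log2 fold change -2.35, SE 0.65, limma adjusted p = 0.00164). It was at 7.53, 9.79 and 4.78 RPMR in Col-0 and 0.721, 0 and 1.33 RPMR in *hyl1-2*. For miR168a-3p the limma adjusted p was 0.0332 with a replicate block in a fit of the 6 libraries, 0.136 in that fit without the block and 0.151 with the block in the fit of 18. Of the 4 entries of families that start trans-acting siRNAs 2 were lower (54.0% over all entries), miR173-5p and the passenger miR390a-3p (log2 fold change -2.85, SE 0.66, limma adjusted p = 2.11e-04). miR390b-3p was under 6 RPMR throughout (log2 fold change -1.16, SE 0.56, limma adjusted p = 0.0669).

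**Figure D4:**
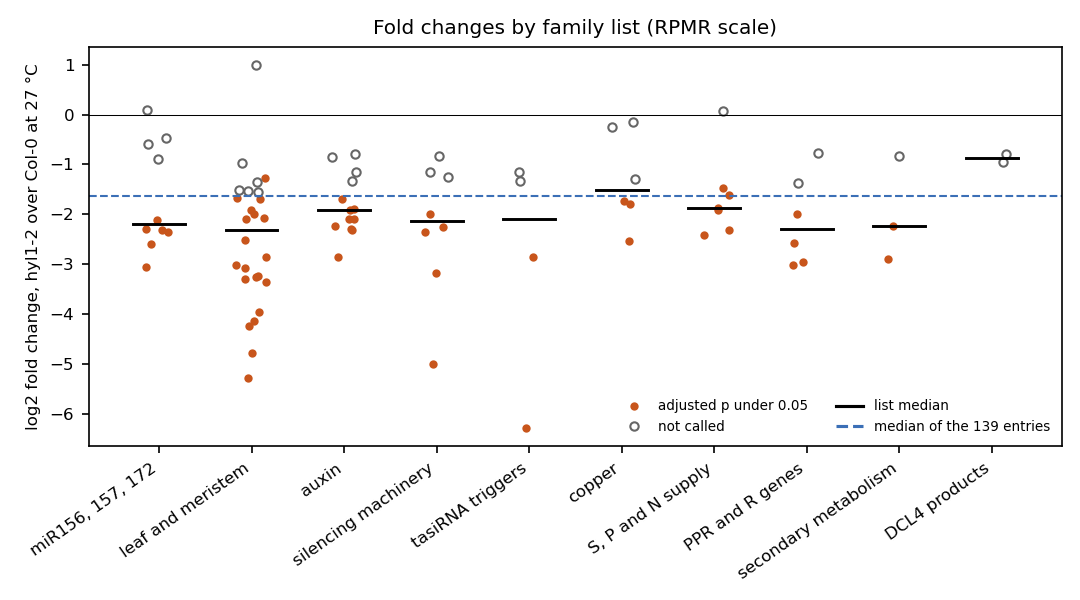
Log2 fold change on the RPMR scale (y axis) of the tested entries of 10 family lists, filled where called and open where not, with the list median (black bar) and the median of the 139 entries (dashed line, -1.62). No list member was called higher, and the 2 products of DCL4 lie above the dashed line.

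The miRNAs that respond to nutrient supply formed a pair of lists, for copper and for other nutrients. Of the 6 copper-related entries 3 were lower, no more than the 54.0% of all entries (median -1.51, and 0.05, 0.67 and 0.24 on the other scales). miR398b-3p, which targets copper/zinc superoxide dismutases, was at 429, 411 and 233 RPMR in Col-0 and 76.9, 44.8 and 58.05 RPMR in *hyl1-2* (log2 fold change -2.54, SE 0.71, limma adjusted p = 0.00185), and the groups were well separated. miR408-3p, which targets laccases and plantacyanin, was at 225, 188 and 55.6 RPMR in Col-0 and 76.5, 32.4 and 24.7 RPMR in *hyl1-2* (log2 fold change -1.73, SE 0.75, limma adjusted p = 0.0417), with overlap, and the limma adjusted p was 0.2 without Col-0 replicate 1, 0.14 without Col-0 replicate 2, 0.13 without *hyl1-2* replicate 2 and 0.17 without *hyl1-2* replicate 3. The passenger miR398b-5p was lower (log2 fold change -1.79, limma adjusted p = 0.0301), and the limma adjusted p was 0.071 without Col-0 replicate 1, 0.17 without Col-0 replicate 2, 0.076 without *hyl1-2* replicate 2 and 0.13 without *hyl1-2* replicate 3. The opposite strand miR408-5p was at 30.97, 48.6 and 9.90 RPMR in Col-0 and 37.03, 21.8 and 13.3 RPMR in *hyl1-2* (log2 fold change -0.16, SE 0.74, limma adjusted p = 0.895).

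Of the 11 entries related to sulfate, phosphate and nitrogen supply 7 were tested, 6 were lower, beside 54.0% of all entries, and none was higher (median -1.87, and -0.73, -0.16 and -0.53 on the other scales). miR399b, which targets the ubiquitin conjugase gene *PHO2*, was at 34.3, 44.5 and 22.9 RPMR in Col-0 and 8.18, 3.11 and 5.67 RPMR in *hyl1-2* (log2 fold change -2.42, SE 0.73, limma adjusted p = 0.00372). miR395b, which targets ATP sulfurylases, was at 6.28, 11.02 and 1.02 RPMR in Col-0 and 0, 0.444 and 0 RPMR in *hyl1-2* (log2 fold change -2.31, SE 0.62, limma adjusted p = 0.00119). The groups of both did not overlap. miR827, which targets *NLA*, was lower at under 11 RPMR throughout (log2 fold change -1.91, limma adjusted p = 0.00214). For miR169f-3p (log2 fold change -1.62, limma adjusted p = 0.0327) the limma adjusted p was 0.13 without Col-0 replicate 1, 0.1 without Col-0 replicate 2, 0.11 without *hyl1-2* replicate 2 and 0.058 without *hyl1-2* replicate 3, and 0.15 with a pseudocount of 5.

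Of 6 entries of families that target pentatricopeptide repeat or disease resistance genes 4 were lower, beside 54.0% of all entries (median -2.29, and -1.13, -0.355 and -0.90 on the other scales). Besides miR161.1 these included miR161.2, at 10.9, 45.7 and 8.53 RPMR in Col-0 and 0.962, 3.995 and 0 RPMR in *hyl1-2* (log2 fold change -3.02, SE 0.71, limma adjusted p = 2.60e-04), and the resistance gene regulator miR472-3p, at 27.2, 24.9 and 10.9 RPMR in Col-0 and 4.33, 3.55 and 0.667 RPMR in *hyl1-2* (log2 fold change -2.58, SE 0.70, limma adjusted p = 0.0013). The opposite strand miR472-5p was at 21.4, 24.1 and 15.02 RPMR in Col-0 and 16.8, 9.77 and 8.34 RPMR in *hyl1-2* (log2 fold change -0.78, SE 0.72, limma adjusted p = 0.366). In the list of secondary metabolism 2 of 3 entries were lower, beside 54.0% of all entries (median -2.24, and -0.45, 0.37 and -0.22 on the other scales). The *MYB* regulator miR858a was at 128, 279.9 and 80.9 RPMR in Col-0 and 24.04, 21.3 and 11.7 RPMR in *hyl1-2* (log2 fold change -2.90, SE 0.73, limma adjusted p = 5.80e-04). The 24-nt miR163, which targets methyltransferase genes, was at 84.97, 223 and 62.5 RPMR in Col-0 and 27.6, 24.9 and 14.7 RPMR in *hyl1-2* (log2 fold change -2.24, SE 0.73, limma adjusted p = 0.00669), and its call was lost without Col-0 replicate 2 (limma adjusted p = 0.074). miR858b was at most 2.86 RPMR in any library (log2 fold change -0.84, SE 0.51, limma adjusted p = 0.149).

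miR822 has a long, nearly perfect hairpin that is cut by DCL4 instead of DCL1. Both of its strands were tested and neither was called. miR822-5p was at 156, 192 and 69.6 RPMR in Col-0 and 78.6, 77.2 and 46.04 RPMR in *hyl1-2* (log2 fold change -0.96, SE 0.74, limma adjusted p = 0.28), and miR822-3p was at 37.7, 26.5 and 15.7 RPMR in Col-0 and 23.6, 11.5 and 10.01 RPMR in *hyl1-2* (log2 fold change -0.80, SE 0.70, limma adjusted p = 0.341). The groups of both strands overlapped. Their log2 fold changes were above the median of -1.62, and on the scale without miR5026 they were 1.68 and 1.72. The difference between the DCL4 products and the other entries was not tested.

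By the classes of the table, where 54.0% of all entries tested were lower, 48 of 68 tested entries of broadly conserved families were lower and none was higher (median -1.96), against 27 lower and 2 higher of 71 in other families (median -0.90). Of 43 guide strands 35 were lower (median -2.31), and of 37 passenger strands 23 (median -1.69). On the scale without miR5026, 7 entries of conserved families were lower and 11 higher (median 0.12). In other families these were 8 and 18 (median 0.46), in guide strands 7 and 3 (median -0.20) and in passenger strands 3 and 9 (median 0.40). The classes were not matched for level. Among mature sequences that start with U, 45 of 80 were lower (median -1.95), with A 9 of 27 (median -0.47, and 2 higher), with C 10 of 18 (median -1.58) and with G 11 of 14 (median -1.99). Sequences that start with A made up 3.42% ± 0.51 (SD, n = 3) of the summed level in Col-0 and 46.8% ± 4.70 in *hyl1-2*, which was 1.30% ± 0.19 and 3.79% ± 0.62 when miR5026 was left out. Both differences had p = 0.1 by the exact permutation test, the smallest possible, and 0.114 adjusted over 16 quantities. Across 112 entries from a single locus, the length of the annotated precursor and the fold change had a Spearman rho of -0.03, and the predicted folding energy per base had a rho of -0.31, as a description of these entries, which share libraries and family members. The energy is a negative number, so a weaker predicted fold tended to go with a lower fold change. Across all 139 entries tested the Col-0 level had a rho of -0.63 with the fold change, which that level also enters.

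Apart from the pseudocount, ratios within a library do not depend on the 45S rRNA scale. The summed guide over passenger ratio was 21.0, 21.3 and 29.3 in Col-0 and 11.1, 10.9 and 10.2 in *hyl1-2* (exact permutation test, p = 0.1, and 0.114 adjusted over 16 quantities). By family, limma on the log2 ratio with a pseudocount of 1 called 5 of 20 families lower in *hyl1-2* (25.0%) and none higher. In the miR156 family it was 9.61, 9.51 and 19.7 in Col-0 and 3.27, 3.79 and 4.76 in *hyl1-2* (difference of the log2 ratios -1.65, SE 0.50, limma adjusted p = 0.0183). In miR408 it was 7.26, 3.88 and 5.62 against 2.06, 1.49 and 1.85 (difference of the log2 ratios -1.57, SE 0.50, limma adjusted p = 0.0183). In miR472 it was 1.27, 1.03 and 0.727 against 0.257, 0.364 and 0.0800 (difference of the log2 ratios -1.81, SE 0.52, limma adjusted p = 0.0183), so the strand named as guide was the scarcer in all *hyl1-2* libraries. miR162 (difference of the log2 ratios -2.74, SE 0.61, limma adjusted p = 0.00405) and miR159 (difference of the log2 ratios -2.72, SE 0.84, limma adjusted p = 0.0183) were the other 2 calls, but each had a defined ratio in only 1 *hyl1-2* library. For miR162 it was 107, beside 174, 122 and 351 in Col-0. For miR159 it was 917, beside 6776, 8002 and 5184 in Col-0. Both values rest on a passenger level of fewer than 3 reads, so the size of a fall was not measured for these families. Their passenger strands were at 0 in 2 of 3 *hyl1-2* libraries, where the ratio is not defined, with miR162a-5p at 5.44, 9.79 and 1.36 RPMR in Col-0 and 0.481, 0 and 0 RPMR in *hyl1-2* and miR159b-5p at 1.67, 2.45 and 1.02 RPMR in Col-0 and 0, 0 and 0.334 RPMR in *hyl1-2*, and miR159b-5p is the only passenger entry of its family. Their fitted values are set by the pseudocount, at -2.08 and -3.82 for miR162 and -2.14 and -3.59 for miR159 with pseudocounts of 0.5 and 5, and with 0.5 the limma adjusted p of miR159 was 0.0884.

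Each of the calls for miR156, miR408 and miR472 was lost without some library. On leaving out a library, the limma adjusted p for miR156 was 0.089 without Col-0 replicate 3, 0.059 without *hyl1-2* replicate 1, 0.05 without *hyl1-2* replicate 2 and 0.051 without *hyl1-2* replicate 3, and for miR408 it was 0.11 without Col-0 replicate 1, 0.062 without Col-0 replicate 3, 0.077 without *hyl1-2* replicate 2 and 0.079 without *hyl1-2* replicate 3. For miR472 it was 0.065 without Col-0 replicate 1 and 0.087 without *hyl1-2* replicate 3, and the pseudocount-dependent value of miR159 had 0.065 without Col-0 replicate 1, 0.073 without Col-0 replicate 2 and 0.11 without *hyl1-2* replicate 3. In a fit of the 6 libraries alone 8 families were called, and the same 8 were called with and without the replicate block. The families added were miR158 (difference of the log2 ratios -2.17) and miR403 (-1.18) as lower and miR390 (1.21) as higher. For miR158 the limma adjusted p was 0.136 in the fit of 18 libraries, and 0.00351 with a replicate block in a fit of the 6 libraries, 0.0139 in that fit without the block and 0.0787 with the block in the fit of 18. For miR403 it was 0.136 in the fit of 18, 0.0168 and 0.0378 in the fit of 6 with and without the block, and 0.0846 in the fit of 18 with it. For miR390 these values were 0.127, 0.0132, 0.031 and 0.0787. Among 20 precursors for which each strand has an entry from that locus only, both strands were lower in 4, a single strand was lower in 6 and neither was lower in 10, beside 54.0% of all entries tested. In *MIR5654*, among the last, the 5p strand was called higher. *MIR829*, which has more than 1 tested entry on its 3p arm, is not among the 20, and its miR829-3p.1 was lower.

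**Figure D5:**
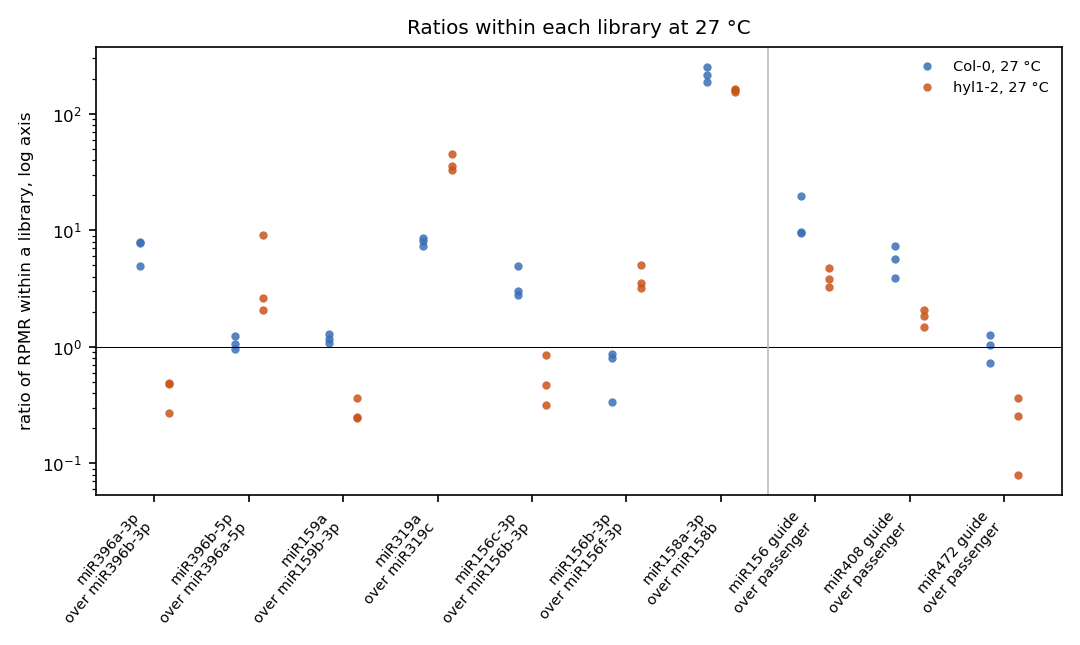
Ratios of RPMR within each library (log y axis) in Col-0 (blue) and *hyl1-2* (orange) at 27 °C, for 7 pairs of entries of a family and arm (left of the grey line) and for the guide over passenger ratio of 3 families (right of it). The miR396a-3p over miR396b-3p ratio lies above 1 in all Col-0 and below 1 in all *hyl1-2* libraries, and miR319a over miR319c moves the other way.

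Members of a family and arm were compared in the same way, a comparison added after the values had been seen. Of 36 pairs of entries, 12 differed between the genotypes (33.3%), and pairs that share a member are not independent. The widest difference was in miR396. miR396a-3p, which was chosen after its value was seen, was at 304, 388 and 111 RPMR in Col-0 and 45.5, 24.4 and 20.4 RPMR in *hyl1-2* (log2 fold change -3.01, SE 0.78, limma adjusted p = 7.76e-04), and miR396b-3p was at 38.9, 77.9 and 13.99 RPMR in Col-0 and 93.3, 89.7 and 42.4 RPMR in *hyl1-2* (log2 fold change 0.99, SE 0.81, limma adjusted p = 0.299). The ratio of the first to the second was 7.81, 4.98 and 7.90 in Col-0 and 0.487, 0.272 and 0.480 in *hyl1-2* (difference of the log2 ratios -4.003, SE 0.46, limma adjusted p = 9.57e-07). On the 5p arm, miR396b-5p over miR396a-5p was 1.05, 1.24 and 0.963 in Col-0 and 9.12, 2.60 and 2.08 in *hyl1-2* (difference of the log2 ratios 1.75, SE 0.64, limma adjusted p = 0.0439). On both arms the ratio thus moved towards the miR396b entry, but the split of reads between the 5p entries is uncertain. The 5p call was lost without each of 5 libraries, with a limma adjusted p of 0.093 without Col-0 replicate 1, 0.073 without Col-0 replicate 2, 0.095 without Col-0 replicate 3, 0.22 without *hyl1-2* replicate 1 and 0.054 without *hyl1-2* replicate 2.

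The annotated precursors of the 2 genes are printed with the mature strands in capitals, and their base pairing is not marked. *MIR396a* lies at chr2:4142323-4142473, minus strand, and *MIR396b* at chr5:13611798-13611932, plus strand, both in TAIR10.1.
MIR396a: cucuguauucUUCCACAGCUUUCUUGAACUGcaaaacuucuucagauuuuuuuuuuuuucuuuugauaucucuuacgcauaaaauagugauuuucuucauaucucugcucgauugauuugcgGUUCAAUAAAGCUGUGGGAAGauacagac
MIR396b: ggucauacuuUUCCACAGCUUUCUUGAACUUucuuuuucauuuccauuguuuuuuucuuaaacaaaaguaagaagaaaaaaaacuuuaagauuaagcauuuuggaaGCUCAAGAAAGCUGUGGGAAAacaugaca
The predicted folding energy was -48.2 kcal/mol for the 151 bases of *MIR396a* and -46.6 kcal/mol for the 135 bases of *MIR396b*.

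Of the other pairs, miR159a over miR159b-3p was 1.17, 1.29 and 1.07 in Col-0 and 0.249, 0.363 and 0.246 in *hyl1-2* (difference of the log2 ratios -2.06, SE 0.27, limma adjusted p = 4.37e-06), a separation that was larger than the spread in either group. miR319a over miR319c was 8.12, 8.50 and 7.30 in Col-0 and 33.1, 45 and 35.4 in *hyl1-2* (difference of the log2 ratios 1.92, SE 0.47, limma adjusted p = 0.00398). Thus the more abundant member was the more reduced of miR159a and miR159b-3p and the less reduced of miR319a and miR319c, where the split of reads is uncertain. In the miR156 passenger strands, miR156c-3p over miR156b-3p was 2.78, 3.01 and 4.94 in Col-0 and 0.315, 0.467 and 0.857 in *hyl1-2* (difference of the log2 ratios -2.68, SE 0.48, limma adjusted p = 1.67e-04). miR156b-3p over miR156f-3p was 0.803, 0.860 and 0.333 in Col-0 and 3.22, 5 and 3.50 in *hyl1-2* (difference of the log2 ratios 2.44, SE 0.44, limma adjusted p = 1.67e-04). These 4 pairs, miR396a-3p over miR396b-3p and miR156c-3p over miR156a-3p (-1.70, limma adjusted p = 0.00588) kept their calls without each library in turn. By contrast miR158a-3p over miR158b was 188, 213 and 250.0 in Col-0 and 163, 161 and 153 in *hyl1-2* and was not called (difference of the log2 ratios -0.55, SE 0.29, limma adjusted p = 0.153), although its groups did not overlap. With a pseudocount of 5 its difference was -0.88 and it was called (limma adjusted p = 0.00585). miR159b-3p over miR159c was not called either (difference of the log2 ratios 0.07, SE 0.64, limma adjusted p = 0.948).

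The 6 remaining pairs with a call each lost it on leaving out at least 1 library. For miR159a over miR159c (-1.98) the limma adjusted p was then 0.066 without Col-0 replicate 3 and 0.089 without *hyl1-2* replicate 2. For miR157a-3p over miR157c-3p (-1.52) it was 0.055 without Col-0 replicate 1, 0.065 without Col-0 replicate 3 and 0.11 without *hyl1-2* replicate 2. For miR390a-3p over miR390b-3p (-1.69) it was 0.093 without Col-0 replicate 1, 0.11 without Col-0 replicate 2, 0.12 without *hyl1-2* replicate 1 and 0.1 without *hyl1-2* replicate 3. For miR156a-3p over miR156f-3p (1.46) it was 0.11 without Col-0 replicate 1, 0.18 without Col-0 replicate 3, 0.15 without *hyl1-2* replicate 2 and 0.14 without *hyl1-2* replicate 3. For miR171a-3p over miR171b-3p (1.79) it was 0.085 without Col-0 replicate 2, 0.19 without Col-0 replicate 3, 0.1 without *hyl1-2* replicate 1 and 0.18 without *hyl1-2* replicate 2, and miR396b-5p over miR396a-5p is given above. The pseudocount decided some of these calls as well. miR171a-3p over miR171b-3p was 0.50 with a pseudocount of 5 (limma adjusted p = 0.39), where miR171b-3p was at 1.001 RPMR or less in *hyl1-2*. With a pseudocount of 0.5 the limma adjusted p was 0.0862 for miR390a-3p over miR390b-3p and 0.0572 for miR396b-5p over miR396a-5p. With a pseudocount of 5 the difference was 1.15 for miR319a over miR319c and -1.08 for the strand ratio of miR472, and both kept their calls. For miR156a-3p over miR156f-3p the limma adjusted p was 0.0581 with 0.5 and 0.0565 with 5.

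The comparison at 27 °C was set beside the same genotypes at 21 °C, which are separate libraries. At 21 °C 83 entries were lower and 1 was higher, with a median of -1.95. Of the 75 entries lower at 27 °C, 69 were also lower at 21 °C (92.0% of the 27 °C calls and 83.1% of the 21 °C calls). The interaction of genotype and temperature passed limma's adjusted threshold in none of the 139 entries (0%), the smallest adjusted p was 0.989, and 4 entries had an unadjusted p under 0.05. The 2 comparisons had a Pearson r of 0.89 over the log2 fold changes of the 139 entries, which are not independent replicates. At 21 °C the log2 fold change was -5.88 for miR173-5p, -6.22 for miR159a, -4.28 for miR156a-5p and 1.13 for miR5026, beside -6.29, -5.29, -3.05 and 2.56 at 27 °C. The widest of the 4 was miR845a, at -2.69 at 21 °C and -0.20 at 27 °C (interaction 2.49, SE 1.08, limma adjusted p = 0.989). Within-library ratios gave no interaction call either, among 20 families (smallest limma adjusted p 0.66, 1 at an unadjusted p under 0.05) or among 36 pairs (0.583 and 1).

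The 22 entries under a mean of 1 RPMR were not tested, and none of them exceeded 3.67 RPMR in any of the 6 libraries. Of these 6 were listed at 0 in all *hyl1-2* libraries and above 0 in at least 1 Col-0 library, and 2 were the reverse. Of the 139 tested, 5 were listed at 0 in all 3 *hyl1-2* libraries. miR1886.2 is given above, and the others were miR5663-5p, miR860, miR5640 and miR862-3p, none of which exceeded 4.08 RPMR in Col-0. In Col-0, 2 tested entries, miR837-5p and miR8178, were listed at 0 in all 3 libraries. Of the 5 most abundant entries with an absolute log2 fold change under 0.5, miR158a-5p, the passenger of the most abundant Col-0 miRNA, was at 24.7, 33.05 and 4.10 RPMR in Col-0 and 23.1, 7.99 and 8.01 RPMR in *hyl1-2* (log2 fold change -0.40, SE 0.82, limma adjusted p = 0.709), and the other 4 were miR845a, miR156b-3p, miR408-5p and miR845b.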

How the data were processed

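The values are the authors' deposited RPMR, a form of RPM: reads per 1000000 reads of 45S rRNA in that library. The authors trimmed reads with cutadapt 3.0, aligned them without mismatches to the Araport11 genome with ShortStack, and tested miRNAs with DESeq2 1.35.0. Every value lay within 1.09e-10 of a whole number of reads, but the unit is not counts and each column has few low values, so the fits are on log values and no count model was run here. All 18 columns were mapped to samples and 0 were left out. Depth was read from the value of 1 read in each column. Names were placed in TAIR10.1, precursors were folded with RNAfold 2.7.2, and sequences are from RefSeq.

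Fold changes are from limma 3.58.1 (R 4.3.3) applied to log2(RPMR + 1). The fit took in 18 libraries as 6 group means with a trended variance. Tests were two-sided, Benjamini-Hochberg adjusted over 139 entries, called under 0.05. The procedure was tested on simulated data. Python 3.11.15, numpy 2.4.6, pandas 2.3.3, scipy 1.17.1 and matplotlib 3.10.9 served the rest. Entries named are the 15 lowest called without overlap, those called higher, the 10 most abundant, up to 4 of each list, and the 5 most abundant with an absolute log2 fold change under 0.5. The members and lists were chosen with earlier results of these data known.

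Same-numbered Col-0 and *hyl1-2* libraries deviated together (r = 0.16, 0.29 and 0.48). This is taken as pairing by the values alone, since no label says what a number shares, and *hyl1-2* replicate 1 had r = 0.17 with Col-0 replicate 2, no lower than with its own number. Fits with this replicate block are given where they changed the call of a named entry or of a family's strand ratio. For other entries and for pairs only the counts of calls with the block are given. The other settings tried were a pseudocount of 0.5 or 5, no low-value filter or one at 5 RPMR, 3 other library scales, a fit of 6 libraries, array weights and leaving out each library. The mRNA sequencing of the study was not analysed here.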

Additional observations from a re-analysis of the deposited data

How the results depend on the processing

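Library scale changed the results most. The count of lower entries was 75 as reported, and 30, 15 and 23 when libraries were scaled to summed miRNA RPMR, to that sum without miR5026 and by median-of-ratios, while the count of higher entries was 2 as reported and 16, 29 and 19. The median log2 fold change was -1.62 as reported and -0.38, 0.26 and -0.21 on these scales. It was -0.89 with a pseudocount of 5 and -2.07 with a minimum mean of 5 RPMR, and each of these settings left 1 higher entry. Without miR5026 the ratio of summed levels was 6.40 in place of 3.68.

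The sign of the log2 fold change differed from that on the RPMR scale in 38, 63 and 43 of the 139 entries on these 3 scales, 15, 25 and 17 of them among the 55 named. The named entries that changed sign with a call on either scale are given here. On scaling to summed miRNA RPMR they were miR393b-3p (1.03), miR408-3p (0.08), miR408-5p (1.62) and miR845a (1.61). Without miR5026 in the sum they were miR158a-3p (0.10), miR166a-3p (0.67), miR396b-5p (1.15), miR157a-3p (0.50), miR156a-3p (1.71), miR167a-5p (0.36), miR393b-3p (1.84), miR390a-5p (1.29), miR160a-5p (0.35), miR168a-3p (1.38), miR168a-5p (1.77), miR398b-3p (0.11), miR408-3p (0.90), miR398b-5p (0.74), miR408-5p (2.39), miR399b (0.031), miR169f-3p (0.11), miR472-5p (1.71), miR163 (0.37), miR822-5p (1.68), miR822-3p (1.72) and miR845a (2.42). By median-of-ratios they were miR166a-3p (0.069), miR393b-3p (1.25), miR168a-5p (1.18), miR408-3p (0.30), miR398b-5p (0.16), miR408-5p (1.82), miR472-5p (1.15) and miR845a (1.83). The cause was not tested.

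Leaving out a library gave 52 to 86 lower and 1 to 2 higher entries, a median of -1.95 to -1.34, 1 to 4 families with a changed strand ratio, 7 to 10 pairs, a ratio of sums of 2.66 to 4.98 and 0 interaction calls. With the replicate block in the 6 libraries 83 entries were lower, 2 were higher and all 75 lower calls were kept. The strand ratio was called in 8 families in place of 5 in the fit of the 6 libraries, both with and without the block. Among the named entries the block in the 6 libraries changed no other call than those of miR396b-5p, miR390a-5p and miR168a-3p, and the block in all 18 libraries changed none. Pairs numbered 12 as reported, 18 with the block in the 6 libraries and 11 with it in 18. With array weights, whose estimation stopped short of its convergence tolerance in at least 1 fit, 91 were lower and 3 higher. Of 927 values of 55 named entries over 17 alternatives, 774 kept direction and side of the threshold. Counts of fewer than about 3 reads, 0.721 to 1.33 RPMR in these libraries, cannot be told from 0.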
